A study of Rattus norvegicus with 6 samples.

Results

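The enzymes that remove superoxide and peroxides were examined in the liver of 3-week-old rat pups. They are 2 superoxide dismutases (Sod1 and Sod2), catalase (Cat), 2 glutathione peroxidases (Gpx1 and Gpx4) and 5 peroxiredoxins (Prdx1, Prdx2, Prdx3, Prdx5 and Prdx6). These 10 genes were taken from a list by gene symbol, out of 14217 genes that had a probe set of their own on an Affymetrix rat expression array. A probe set is a group of short probes summarised into 1 value. Livers came from Sprague-Dawley pups at weaning, 3 whose dams were fed a high fat diet and 3 whose dams were fed standard chow (control), with 1 array each. The question is whether maternal feeding goes with a difference in the liver transcripts of the young. The labels name neither litters nor the composition of the diets, so some pups may have had the same dam.

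Superoxide is made mainly where electrons leak from the respiratory chain and from some oxidases. Superoxide dismutases convert it into hydrogen peroxide and oxygen. Hydrogen peroxide is then broken down by catalase in peroxisomes, by glutathione peroxidases at the expense of glutathione, and by peroxiredoxins, most of which are reduced again by thioredoxin. The liver is rich in these enzymes because its peroxisomes and mitochondria oxidise fatty acids and because it metabolises many foreign compounds.

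No difference in the transcript levels of these enzymes was detected between pups of high fat dams and control pups. Of the 10 genes, 9 had a probe set of their own, and all 9 lay above the brightness limit, a mean log2 signal of 5.83, and were tested. None passed an adjusted p under 0.05 in limma, a linear model fitted to all 10372 genes tested, with adjusted p from 0.425 to 0.99. That threshold was passed by 0.0386% of all genes. None of the 9 reached an unadjusted p under 0.05 either, against 14% of all genes. The differences ran from -0.20 for Prdx2 to 0.24 for Cat on the log2 scale, and the widest bounds of their 95% intervals were 0.677-fold and 1.44-fold of control. The intervals therefore leave room for modest differences, and the missed thresholds do not show that the levels were equal.

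**Figure D1:**
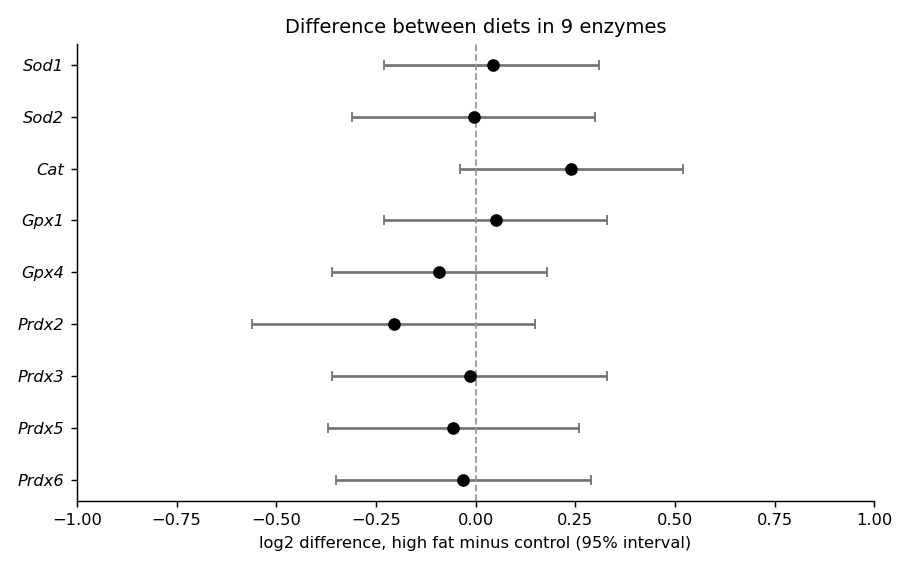
Log2 difference, high fat minus control, for each of the 9 enzymes with a probe set of its own (points) with limma's 95% interval (bars; 3 arrays per diet). Every interval includes 0, and the points lie between -0.20 and 0.24.

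The arrays differed in ways that bear on all genes. The hepatocyte genes tested were bright on every array, 14.46 to 14.77 for albumin in high fat pups and 14.54 to 14.62 in controls. High fat replicate 1 carried exocrine pancreas transcripts, with the trypsinogen gene Prss1 at 13.08 there and at 4.10 to 5.30 on the other 5 arrays. In high fat replicate 3, Xist, which is transcribed from the inactive X, was at 4.45, against 12.46 to 13.31 on the others. The mean difference between 3' and 5' probe sets of Gapdh and Actb, a reading of RNA integrity, was 1.92 to 2.46 in high fat pups and 2.18 to 3.06 in controls, highest in control replicate 3. Markers of the sinusoidal endothelium were lower in high fat pups for 7 of 7 genes tested, with 6 at an unadjusted p under 0.05, where the background of lower genes was 7.49%, and none past the adjusted threshold. Kupffer cell and macrophage markers were lower for 5 of 7, with 3 at an unadjusted p under 0.05 (Cd163, Cd14 and Mrc1). The markers did not go one way, since Clec4f was at -0.03 on the log2 scale and Cd68 and Adgre1 were higher, at 0.12 and 0.13. The part of these differences in the values below was not tested, beyond the values without single arrays. In bulk tissue, fewer cells of a type and less RNA per cell cannot be told apart.

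The superoxide dismutases, which act first in this chain, differed little between the diets. Sod1, the copper and zinc enzyme of the cytosol, had log2 signals of 14.30, 14.32 and 14.37 in high fat pups, against 14.27, 14.32 and 14.27 in control pups. Control replicate 2 lay within the high fat range, and the difference of 0.04 (SE 0.11) had a 95% interval of 0.854-fold to 1.24-fold (limma adjusted p = 0.902). Sod2, the manganese enzyme of the mitochondrial matrix, was at 11.91, 11.95 and 11.72 in high fat pups, against 11.79, 11.93 and 11.88 in control pups. The lowest Sod2 value came from high fat replicate 3 and the highest from high fat replicate 2, so that the high fat range enclosed the control range. Its difference was -0.005 (SE 0.13), with a 95% interval of 0.807-fold to 1.23-fold (limma adjusted p = 0.99).

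Catalase, the heme enzyme that splits hydrogen peroxide in peroxisomes, had the largest difference of the 9 and the smallest p. Cat was at 14.39, 14.36 and 14.43 in high fat pups, against 14.06, 14.20 and 14.20 in control pups. All high fat arrays lay above all control arrays, by 0.157 at the closest point, while the controls themselves ranged over 0.144. The high fat mean was 14.39 ± 0.04 and the control mean 14.15 ± 0.08 (SD, n = 3 each), which is 1.18-fold higher (log2 0.24, SE 0.12, 95% interval -0.04 to 0.52), and it did not pass the test (limma adjusted p = 0.425, unadjusted p = 0.0841). With the values as deposited, the groups overlapped, since Cat was at 14.35, 14.24 and 14.51 in high fat pups and 14.08, 14.25 and 14.20 in control pups. With limma's trend and robust options together, which let the variance depend on brightness and limit the weight of outlying genes, the interval was 0.06 to 0.42 (limma unadjusted p = 0.0142, adjusted p = 0.223).

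Glutathione peroxidases reduce peroxides with a selenocysteine in the active site. Gpx1, which acts on hydrogen peroxide in the cytosol and mitochondria, was at 14.34, 14.19 and 14.25 in high fat pups, against 14.23, 14.24 and 14.17 in control pups. The groups overlapped, and its difference of 0.05 (SE 0.12) had a 95% interval of 0.853-fold to 1.26-fold (limma adjusted p = 0.884). Gpx4 reduces lipid hydroperoxides within membranes and is known as the guard against ferroptosis, a form of cell death driven by lipid peroxidation. Its brighter probe set was at 13.40, 13.34 and 13.34 in high fat pups, against 13.45, 13.46 and 13.44 in control pups.

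All 3 high fat values of Gpx4 lay below all 3 control values, by 0.04 at the closest point. The high fat mean was 13.36 ± 0.04 and the control mean 13.45 ± 0.01 (SD, n = 3 each), a log2 difference of -0.09 (SE 0.11, 95% interval 0.778-fold to 1.13-fold, limma adjusted p = 0.756). As deposited, Gpx4 was at 13.37, 13.29 and 13.39 in high fat pups and at 13.47, 13.49 and 13.41 in control pups, without overlap. After quantile normalization, the SD of Gpx4 within groups was 0.0265, and 0.154% of the genes tested had a smaller one. The standard error is larger because limma moves each gene's spread towards that of all genes. A second, dim Gpx4 probe set was at 6.03, 5.48 and 6.59 in high fat pups and at 6.26, 6.0 and 6.50 in control pups, close to the brightness limit, with groups that overlapped.

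**Figure D2:**
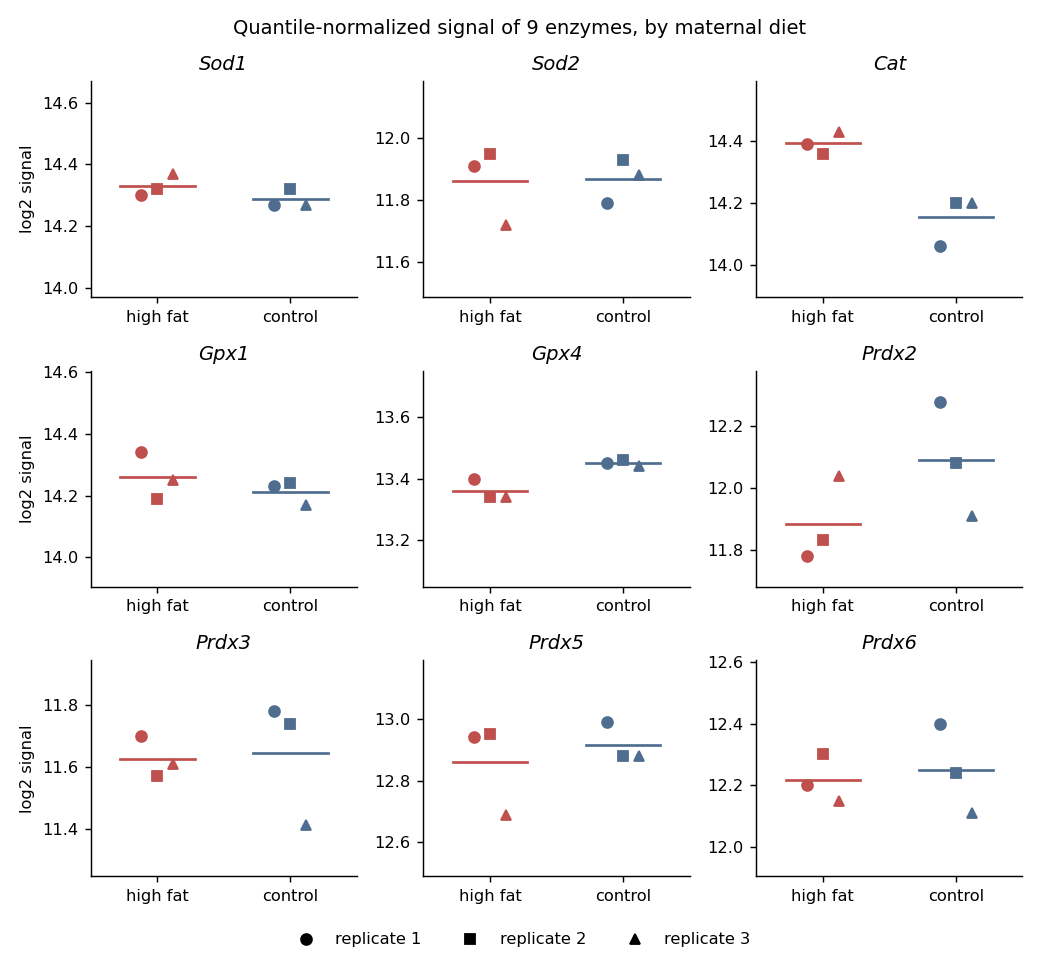
Quantile-normalized log2 signal of each enzyme on each array, high fat (red) left of control (blue), with the replicate number as the symbol and the group mean as a line; every panel spans the same number of log2 units. Cat is higher on all 3 high fat arrays and Gpx4 lower on all 3, and the groups of the other 7 enzymes overlap.

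Peroxiredoxins reduce peroxides through a reactive cysteine. Prdx2, a cytosolic form that is abundant in red blood cells, was at 11.78, 11.83 and 12.04 in high fat pups, against 12.28, 12.08 and 11.91 in control pups. High fat replicate 3 lay above control replicate 3, so the groups overlapped. It had the largest downward difference of the 9, -0.20 (SE 0.15, 95% interval 0.677-fold to 1.11-fold, limma adjusted p = 0.594).

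Erythroid genes were read beside Prdx2. All 5 erythroid genes tested were lower in high fat pups. Among them 1, the anion exchanger Slc4a1, had an unadjusted p under 0.05 (log2 -0.96, SE 0.29, limma adjusted p = 0.251). The background of lower genes at that level was 7.49%. The log2 of their summed signal ranged from 14.40 to 14.65 in high fat pups and from 14.50 to 14.93 in control pups. That sum is mostly the globin gene Hbb, at 14.35 to 14.58 in high fat pups and 14.44 to 14.83 in control pups. None of the 5 genes was at 0 on any array. Their median relative to the control mean was -0.35, -0.94 and -0.16 in high fat replicates 1 to 3, against 0.44, 0.03 and -0.44 in control replicates 1 to 3. The order of the controls was the same for Prdx2 and for this median, and that of the high fat pups was not, since Prdx2 was lowest in replicate 1 and the erythroid median in replicate 2. The part of red cells in the Prdx2 values was not tested.

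The mitochondrial forms did not separate by diet. Prdx3, which is found in the mitochondrial matrix, was at 11.70, 11.57 and 11.61 in high fat pups, against 11.78, 11.74 and 11.41 in control pups. Control replicate 3 was the lowest of the 6 arrays and control replicate 1 the highest, and the difference was -0.01 (SE 0.15, 95% interval 0.778-fold to 1.26-fold, limma adjusted p = 0.977). Prdx5, found in mitochondria, peroxisomes and the cytosol, was at 12.94, 12.95 and 12.69 in high fat pups, against 12.99, 12.88 and 12.88 in control pups. High fat replicate 3 stood below the other 5 arrays, and the groups overlapped (difference -0.06, SE 0.13, 95% interval 0.773-fold to 1.20-fold, limma adjusted p = 0.886).

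Prdx6 uses glutathione rather than thioredoxin as its reductant and also has phospholipase activity. It was at 12.20, 12.30 and 12.15 in high fat pups, against 12.40, 12.24 and 12.11 in control pups. The control range enclosed the high fat range, and the difference was -0.03 (SE 0.13, 95% interval 0.785-fold to 1.22-fold, limma adjusted p = 0.935). Prdx1, the main cytosolic form in many tissues, could not be tested on its own. Its only probe set was annotated to both Prdx1 and Prdx1l1. The signal of that shared probe set was 14.45, 14.45 and 14.35 in high fat pups and 14.48, 14.46 and 14.48 in control pups, and cannot be assigned to either gene.

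As a group, the 9 enzymes were split between 3 higher and 6 lower, with a median log2 difference of -0.014, beside -0.022 over all genes tested. Sod1 and Gpx1 turned to slightly lower with the values as deposited or with median centring, which left 1 enzyme, Cat, higher in both. The count of enzymes whose high fat and control arrays did not overlap was 2 of 9, and 20.8% of all genes tested did not overlap, so that the share among the enzymes was near the background. Those enzymes were Cat, upward, where the background was 9.26%, and Gpx4, downward, where it was 11.6%. Sizes were small: the median absolute difference was 0.0502 on the log2 scale, beside 0.191 over all genes tested, and 7 of the 9 enzymes differed by less than the median gene.

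The enzymes also varied little within groups after quantile normalization. All 9 then had a smaller SD within groups than the median gene, from 0.0265 for Gpx4 to 0.162 for Prdx2. Their median was 0.101, beside 0.223 over all genes. As deposited, Sod1 was at 14.25, 14.19 and 14.43 in high fat pups, a wider spread. Prdx5 was at 12.93, 12.91 and 12.71 there, a slightly narrower spread. The part of the normalization in the small SDs was not tested. Bright probe sets varied less in general. Among the 1259 genes at least as bright as the dimmest of the 9 enzymes, at a mean of 11.63, the median absolute difference was 0.158 and the median SD 0.15, and 26.8% did not overlap between the diets. Whether the signal of the brightest probe sets was compressed near the top of the scale was not tested. The brightest signal of any probe set was 15.08 to 15.47 on the deposited arrays, and Sod1, the brightest of the enzymes, had a mean of 14.31.

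**Figure D3:**
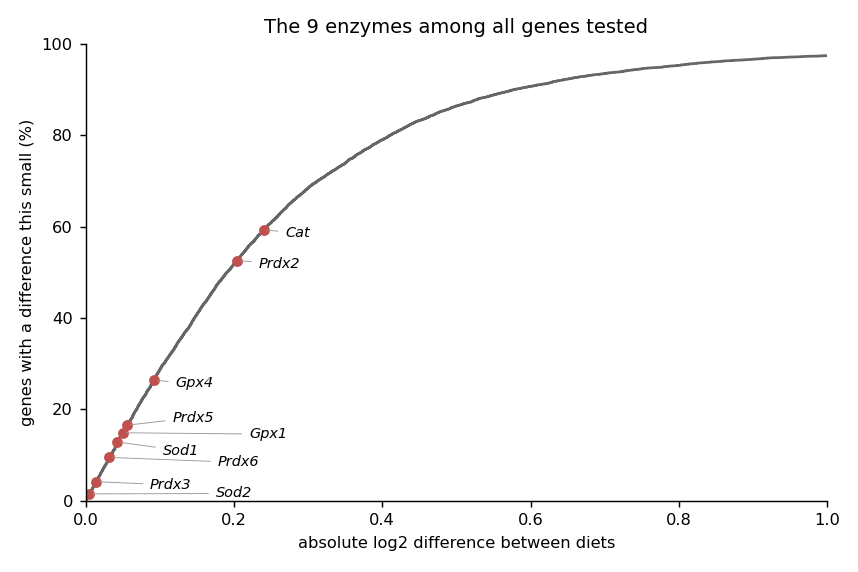
Share of the 10372 genes tested (vertical axis, percent) whose absolute log2 difference between the diets is at most the value on the horizontal axis, shown up to 1, with the 9 enzymes as red points. Of the points, 7 lie below the median gene, and Prdx2 (absolute difference 0.20) and Cat (0.24) lie just above it.

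The enzymes did not move together from array to array. Over the 6 arrays, Pearson's r between pairs of the 9 enzymes was positive for 18 of 36 pairs, with a median of 0.00. The lowest was -0.84, between Cat and Gpx4, and the highest 0.75, between Sod1 and Cat. These values describe 6 arrays that share one normalization. Relative to the control mean, the median over the enzymes was 0.02, 0.03 and -0.05 in high fat replicates 1 to 3, against 0.02, 0.03 and -0.04 in control replicates 1 to 3. Among all genes tested, those whose profile was most like that of Cat were C1h9orf40 (r = 0.985), Tec (r = 0.982) and Lpxn (r = 0.978). For Prdx2, which had the widest range over the arrays, they were Nme7 (r = 0.992), Bbip1 (r = 0.992) and Myd88 (r = 0.989). With 6 arrays, 18 genes exceeded 0.95 for Cat and 27 for Prdx2.

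Promoter sequence was read as a feature that the choice of genes did not use. In RefSeq's table for the GRCr8 build, 9 of the 10 genes had a promoter entry; Prdx6 had none there and is named only. The 250 bases before each start were searched on both strands for the GC box, GGGCGG, and for the core of the antioxidant response element, TGANNNNGC, the site bound by NRF2. These genes have 11 windows in the table, 1 for each start. A GC box was present in 9 of the 11 windows, which covers every gene but Cat, and in 30.5% of all 33469 windows. The antioxidant response element core was present in 6 of the 11 windows, of 5 genes (Gpx1, Gpx4, Prdx1, Prdx3 and Sod2), and in 34.7% of all windows. The G and C content was 55.2% to 71.6% in the windows of these genes, beside a median of 51.2% over all windows. The sequences of Cat and Gpx4 are shown because they were the enzymes whose groups did not overlap. Capitals mark the letters of either motif. For Gpx4, which has 3 starts in the table, the first start has 4 GC boxes and 2 antioxidant response element cores, of which 1 core overlaps a GC box. Only this first start is shown. Of the other Gpx4 starts, 1 has 4 GC boxes and 1 core, and 1 has neither motif. The window of Cat has neither, and so no capitals. A match shows only that the letters are there.
Cat, chr3:110329527-110329776, minus strand: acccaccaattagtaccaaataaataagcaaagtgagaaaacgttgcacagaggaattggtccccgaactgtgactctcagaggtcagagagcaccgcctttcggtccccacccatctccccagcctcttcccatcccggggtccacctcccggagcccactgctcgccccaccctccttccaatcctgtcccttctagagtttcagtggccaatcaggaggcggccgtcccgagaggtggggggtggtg
Gpx4, chr7:10303630-10303879, minus strand: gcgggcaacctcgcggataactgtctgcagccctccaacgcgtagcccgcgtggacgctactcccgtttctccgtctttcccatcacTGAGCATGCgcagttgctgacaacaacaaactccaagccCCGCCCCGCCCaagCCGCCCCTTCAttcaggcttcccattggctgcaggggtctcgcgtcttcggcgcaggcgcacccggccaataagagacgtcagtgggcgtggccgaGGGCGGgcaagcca

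Among genes that supply, reduce or metallate these enzymes, some differed by more than any of the 9 enzymes. The lists hold more genes, and dimmer ones, such as Slc7a11 with a control mean of 4.95. All 9 enzymes had a mean of at least 11.63, so the ranges are not set side by side at like brightness. In 9 lists of related functions, 105 of 120 genes were tested, 57 higher and 48 lower in high fat pups, with a median of 0.014. That split depended on the scaling. With median centring several lists had fewer genes higher, such as 6 of 10 for glutathione supply and 4 of 10 for selenoprotein synthesis, and no list had more. None of the 105 genes passed an adjusted p under 0.05. At an unadjusted p under 0.05 there were 15 higher, where the background was 6.55% of genes, and 13 lower, where it was 7.49%. The genes named below are the 3 with the smallest p of each list. Their values are differences on the log2 scale, and none passed the adjusted test (limma adjusted p from 0.131 to 0.546). Choosing genes by p favours those whose groups do not overlap, so non-overlap among them is description and no further result. Of all genes tested, 20.8% did not overlap.

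**Figure D4:**
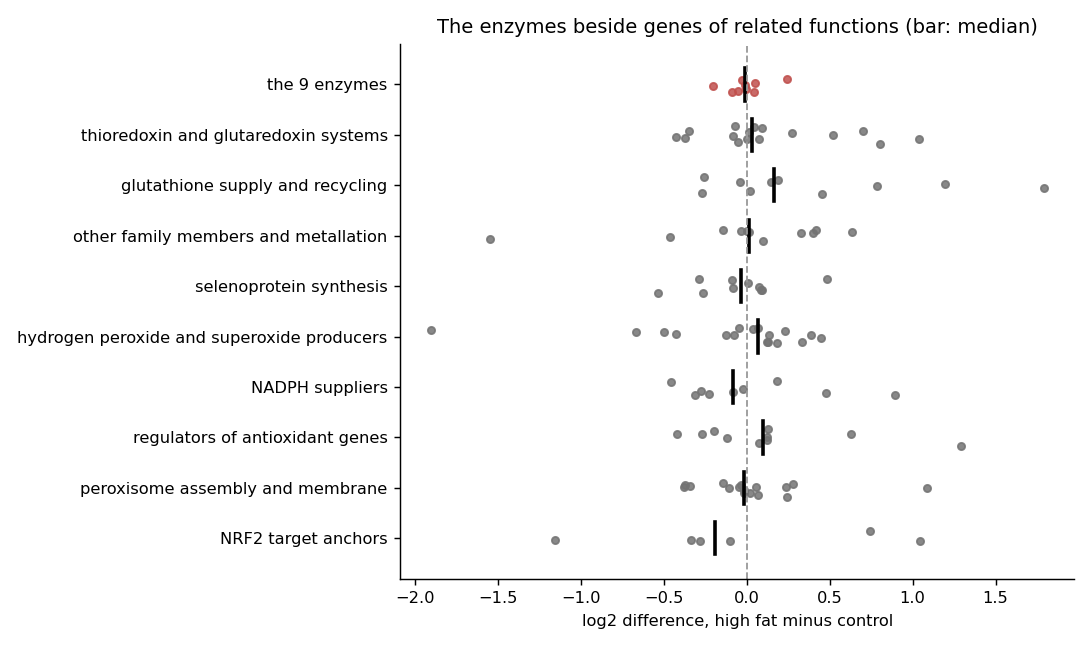
Log2 difference, high fat minus control, of each gene tested (points, spread vertically for visibility) in the 9 enzymes (red) and in 9 lists of related functions (grey), with the list's median as a black bar. The enzymes lie between -0.20 and 0.24, and each grey list has genes outside that range.

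Glutathione, the reductant of the glutathione peroxidases and of Prdx6, is made from cysteine by the ligase of Gclc and Gclm. Gclm, its modifier subunit, was at 12.38, 12.52 and 12.36 in high fat pups, against 11.73, 11.40 and 11.77 in control pups. The groups did not overlap, and the difference was 0.79 (SE 0.15), 1.72-fold. Gclc, the catalytic subunit, was at 11.99, 13.03 and 12.17 in high fat pups, against 10.74, 11.48 and 11.40 in control pups, a difference of 1.19 (SE 0.32). Slc7a11, the cystine importer, was at 6.16, 7.58 and 6.49 in high fat pups, against 4.43, 5.56 and 4.87 in control pups, a measured difference of 1.79 (SE 0.43). Its control mean of 4.95 lay below the brightness limit, so it was tested only because of its high fat arrays. In all 3 genes every high fat array lay above every control array. In that list 7 of 10 genes tested were higher, with a median of 0.166. At an unadjusted p under 0.05, 3 were higher, with Slc7a11 among them, where the background of higher genes was 6.55%.

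The thioredoxin and glutaredoxin list, which holds the reductants of most peroxiredoxins, had 10 of 16 genes higher and a median of 0.028, and 7 of 16 higher and a median of -0.004 with median centring. At an unadjusted p under 0.05 there were 4 higher, where the background was 6.55% of genes, and 2 lower, where it was 7.49%. Txnip, the inhibitor of thioredoxin, was at 12.46, 11.78 and 12.47 in high fat pups, against 11.54, 11.52 and 11.56 in control pups, a difference of 0.70 (SE 0.21). Mitochondrial thioredoxin, Txn2, the reductant of Prdx3, was at 11.39, 11.21 and 11.19 in high fat pups, against 11.58, 11.72 and 11.77 in control pups, a difference of -0.43 (SE 0.13). Glrx5, a mitochondrial glutaredoxin of iron-sulfur cluster assembly, was at -0.35 (SE 0.13). For all 3 the groups did not overlap.

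Of the other members of these families and the metal transporters, 7 of 11 were higher, with a median of 0.012, and 5 of 11 with a median of -0.003 with median centring. Prdx4, the peroxiredoxin of the endoplasmic reticulum, was at 12.86, 13.01 and 12.71 in high fat pups, against 12.62, 12.43 and 12.27 in control pups, a difference of 0.42 (SE 0.15). Gpx2, a glutathione peroxidase best known from the gut epithelium, was at 5.48, 6.01 and 4.67 in high fat pups, against 7.41, 7.63 and 5.77 in control pups. Its groups overlapped and the measured difference was -1.55 (SE 0.55). The high fat mean of 5.39 lay below the brightness limit, so Gpx2 was tested only because of its control arrays. The manganese exporter Slc30a10 was at -0.46 (SE 0.16).

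Selenoprotein synthesis, on which Gpx1 and Gpx4 depend, had 5 of 10 genes higher and a median of -0.038. Sephs2, which makes the selenium donor, was at 12.65, 12.57 and 12.67 in high fat pups, against 13.27, 13.38 and 12.83 in control pups, a difference of -0.53 (SE 0.17). Scly, which recovers selenium from selenocysteine, differed the other way, by 0.48 (SE 0.16), and Sephs1, a paralogue of Sephs2, was at -0.29 (SE 0.15). In these 3 genes the groups did not overlap.

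Among enzymes that produce superoxide or hydrogen peroxide, 10 of 17 were higher, with a median of 0.067. At an unadjusted p under 0.05, 1 was higher, where the background was 6.55% of genes, and 4 were lower, where it was 7.49%. Urate oxidase, Uox, which sits with Cat in the peroxisome and releases hydrogen peroxide, was at 13.87, 14.07 and 13.76 in high fat pups, against 14.23, 14.47 and 14.51 in control pups, a difference of -0.50 (SE 0.15). Xanthine dehydrogenase, Xdh, which makes its substrate, was at -0.67 (SE 0.18), and Ero1a, an oxidase of the endoplasmic reticulum, at -0.43 (SE 0.14). In each of these genes every high fat array lay below every control array. Peroxisome assembly and membrane genes had 7 of 16 higher and a median of -0.016. Pex11a, which promotes peroxisome division, was at 1.09 (SE 0.29), with 11.48, 10.86 and 10.40 in high fat pups, against 9.63, 10.11 and 9.73 in control pups. Pex2 was at -0.34 (SE 0.14) and Pex5, the import receptor for most proteins of the peroxisomal matrix, at -0.37 (SE 0.15).

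NADPH, which keeps glutathione and thioredoxin reduced, comes from enzymes that had 3 of 9 genes higher and a median of -0.082. Malic enzyme, Me1, was at 9.83, 9.97 and 9.95 in high fat pups, against 9.07, 9.12 and 8.87 in control pups, a difference of 0.90 (SE 0.13). Pgd, of the pentose phosphate pathway, was at -0.46 (SE 0.15), and Nnt, the mitochondrial transhydrogenase, at 0.48 (SE 0.26) with overlapping groups. Of the regulators, 6 of 10 were higher, with a median of 0.098. Ppara, the fatty acid sensor of the liver, was at 7.92, 7.55 and 7.97 in high fat pups, against 6.40, 6.82 and 6.35 in control pups, a difference of 1.29 (SE 0.19). Ppargc1b was at 0.63 (SE 0.39) and Sirt3 at -0.27 (SE 0.18), both with overlapping groups.

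The targets of NRF2 that served as anchors went both ways, 2 of 6 higher with a median of -0.192. This list does not hold Gclc, Gclm and Slc7a11, given above with glutathione supply and all higher in high fat pups. Epoxide hydrolase, Ephx1, was at 13.12, 13.08 and 12.95 in high fat pups, against 11.48, 12.59 and 11.95 in control pups, a difference of 1.04 (SE 0.27). Nqo1, the quinone reductase, was at 10.41, 11.77 and 11.04 in high fat pups, against 12.97, 11.92 and 11.81 in control pups, a difference of -1.16 (SE 0.43). Gsta3, a glutathione transferase, was at 0.75 (SE 0.29). The groups of all 3 genes did not overlap.

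Leaving out arrays did not bring any of the 9 enzymes past the adjusted threshold. Leaving out high fat replicates 1 and 3 together, which carried the pancreas transcripts and the low Xist signal, left 1 high fat array. The Cat difference was then 0.21, that of Gpx4 -0.11 and that of Prdx2 -0.25. With 1 high fat array, the spread between high fat pups is not measured. With any 1 array left out, Cat ranged from 0.19 to 0.27, Gpx4 from -0.11 to -0.081 and Prdx2 from -0.29 to -0.11, and these 3 kept their sign. Prdx2 was at -0.11 without control replicate 1, a move of over 1.5 times. Of the 27 related genes named above, none passed an adjusted p under 0.05 in limma under any of the 17 alternatives. None of the 27 changed sign either, but they were chosen by a small p in these same data, which favours a stable sign. Some alternatives, such as the filter changes and the replicate block, also leave a difference unchanged by design. The kept signs are therefore no further support.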

How the data were processed

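Total liver RNA was labelled with a 3' IVT kit and hybridised to Affymetrix rat arrays (per the labels' protocols). The deposited values were read as log2 signals, since with base 2 each array had the same trimmed mean (2% cut from each end), 500.2. The method that summarised the probes was not given in the sources used here. The number of arrays limits the precision. Probe sets were paired with genes through the platform annotation given, and symbols were brought up to date from RefSeq's rat genes for 20758 of the 20826 probe sets that had 1 gene. A further 436 probe sets had several genes and 9780 were not named here. Quartiles differed by up to 0.22 between arrays, so the 31042 probe sets other than controls were quantile-normalized. The probe set with the highest mean was kept for each gene, and a gene was tested if that mean was at least 5.83, the 40% point of all probe sets.

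High fat was compared with control in R 4.3.3 by limma's moderated 2-sided test (version 3.58.1). P-values of the 10372 genes tested were adjusted together by the Benjamini-Hochberg method. Every p-value and interval is limma's. The fit was tested on simulated data. Alternatives covered the normalization, the filter, the choice of probe set, the variance model, array weights, the replicate block, an RNA integrity covariate and arrays left out. When arrays were left out, the normalization and filter of all 6 arrays were kept. P-values measure the spread between these samples, since no litters are named. The 10 enzymes and the lists of related genes were chosen with earlier results of these data known. From each list, the 3 genes with the smallest p were named. Promoter sequences are RefSeq's (GRCr8). Python 3.11.15 and matplotlib 3.10.9 made the figures.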

Additional observations from a re-analysis of the deposited data

How the results depend on the processing

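None of the 9 enzymes passed an adjusted p under 0.05 in limma under any of the 17 alternatives, where the smallest adjusted p was 0.223, and 136 of the 153 values kept their sign. Cat, Gpx4 and Prdx2 kept theirs under all 17. The filter changes, the test of every probe set, the trend and robust options and the replicate block leave each enzyme's difference unchanged by design. The mean of probe sets could change Gpx4 only. Signs kept under those alternatives are therefore no support. Sod1 was at -0.028 with the values as deposited and -0.05 with median centring, and Gpx1 at -0.013 and -0.035. Without high fat replicates 1 and 3 together, which leaves 1 high fat array, Gpx1 was at -0.017, Sod2 at 0.085, Prdx5 at 0.035 and Prdx6 at 0.052. With 1 array left out, Sod2 ranged from -0.05 to 0.064, Prdx3 from -0.13 to 0.054, Prdx5 from -0.1 to 0.03 and Prdx6 from -0.1 to 0.043. The median over the enzymes ranged from -0.087 to 0.034. Only Cat had an unadjusted p under 0.05 with limma's trend and robust options together. The number of enzymes whose groups did not overlap was 1 with the values as deposited, 0 with median centring and 1 with the mean of the probe sets. Over all genes tested, those settings gave 2158 of 10374, 2139 of 10374 and 2008 of 9816. The number of enzymes was 4 without high fat replicates 1 and 3, where fewer arrays can overlap, and 2 to 4 with 1 array left out. Over all 10372 genes tested, the counts were 6037 without those 2 arrays and 3019 to 3442 with 1 array left out. The 4 genes of the whole series past the adjusted threshold became 1 with no brightness filter, 1 with the lowest 20% left out, 0 with the 3' minus 5' covariate, 7 at an adjusted p under 0.1 and 0 to 4 with 1 array left out (0 without control replicates 1 and 3 in turn, with 1308 and 1145 genes at an unadjusted p under 0.05 in limma). The cause was not tested. The replicate block gave 0 genes past the adjusted threshold (1102 at an unadjusted p under 0.05 in limma) and changed no call on the enzymes. Deviations from the group means had r of -0.14 to -0.13 between same-numbered samples and 0.04 to 0.08 between differently numbered samples. By these values, same-numbered samples were less alike than differently numbered ones. Deviations within a group sum to 0, which ties the r values to each other. Whether same-numbered samples share more than a number was not tested.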
